A study of Mus musculus with 30 samples.

Results

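Mineralization of a fracture callus rests on a small set of enzymes and transporters that set the local balance of phosphate and pyrophosphate, and 7 of their genes were examined among the 55416 genes counted in 30 mouse calluses. They were *Alpl*, *Phospho1*, *Enpp1*, *Smpd3*, *Sgms2*, *Slc20a1* and *Slc20a2*, taken by name, and all 7 passed the filter on low counts at each of the 4 time points. *Sgms2* was chosen by its fall at 6-dpf (days post fracture), so every value that uses the 6-dpf mice is given for it as a description without a test. The main difference lay in the enzymes that free phosphate and supply its phosphocholine substrate: *Alpl*, *Phospho1* and *Smpd3* were 3.43-, 2.60- and 8.91-fold lower in P-Apex1KO than in WT callus at 6-dpf. *Enpp1*, which makes the inhibitor pyrophosphate, did not pass the test at any of the 4 time points with all mice in the fit.

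Bulk RNA-seq was made from the fracture callus of WT and P-Apex1KO mice after a closed, non-stabilized break of the left tibial shaft at 7 to 12 weeks of age, in both sexes. P-Apex1KO mice are Prrx1-Cre+;Apex1C/C: Prrx1-Cre deletes floxed *Apex1*, a DNA repair and redox gene, in limb bud mesenchyme, while blood, immune and any further callus cells retain it. The WT littermates carried Prrx1-Cre with 1 floxed allele (Prrx1-Cre+/-;Apex1C/+) or floxed alleles without Cre (Apex1C/C and Apex1C/+), from a line crossed to C57Bl/6J, and the labels do not say which WT mouse had which genotype. There were 4 WT and 4 P-Apex1KO mice at 3-dpf, 5 and 3 at 6-dpf, 4 and 3 at 10-dpf and 4 and 3 at 14-dpf, each callus being 1 library.

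Mineral forms in cartilage and bone inside matrix vesicles, small membrane sacs that bud from hypertrophic chondrocytes and osteoblasts. Inside them PHOSPHO1 splits phosphate from phosphocholine, which comes from sphingomyelin: sphingomyelin synthase 2 (*Sgms2*) makes that lipid and neutral sphingomyelinase 2 (*Smpd3*) cleaves it. Outside, tissue-nonspecific alkaline phosphatase (*Alpl*) breaks down pyrophosphate, an inhibitor of crystal growth that ENPP1 makes from ATP, and the products of *Slc20a1* and *Slc20a2* carry phosphate into cells together with sodium.

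Between 18334389 and 43111491 reads per library were counted on genes. Values are CPM, read counts scaled to a common library total with TMM factors over the 30 libraries. Genotypes were tested with the quasi-likelihood method of edgeR, sex being a covariate, p was adjusted by Benjamini and Hochberg across every gene fitted, and a gene was called where adjusted p was under 0.05. SE is the standard error of a log2 fold change. *Apex1* was 15.1 to 15.8 CPM in the P-Apex1KO mice against 20.7 to 28.9 CPM in WT mice at 6-dpf (adjusted p = 0.0071), and it passed the test at 10-dpf as well (adjusted p = 0.0278). The 10-dpf call of *Apex1* was lost without replicate 1 (0.104), 2 (0.0571) or 3 (0.0742) of P-Apex1KO or replicate 1 of WT (0.0828), without the sex term (0.0791) and with the replicate number in place of sex (0.14). At 14-dpf its groups did not overlap (adjusted p = 0.367). At 3-dpf it was not lower by the test (adjusted p = 0.927), and replicate 4 of the knockout group, at 34.5 CPM, lay above every WT mouse, so those mice are called libraries labelled P-Apex1KO. At 14-dpf the 3 P-Apex1KO mice and 1 of the 4 WT mice were female, so the sex-adjusted comparison of genotypes rests on that WT female. In bulk callus RNA, fewer cells of a type and less RNA per cell cannot be told apart.

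*Alpl* lies on chromosome 4 of GRCm39 from 137469039 to 137524102 on the minus strand, *Phospho1* on chromosome 11 from 95715264 to 95722973 on the plus strand, *Enpp1* on chromosome 10 from 24513812 to 24588057 on the minus strand and *Smpd3* on chromosome 8 from 106979176 to 107064670 on the minus strand. *Sgms2* lies on chromosome 3 from 131112634 to 131197172 on the minus strand. *Slc20a1* lies on chromosome 2 from 129040256 to 129053536, *Slc20a2* on chromosome 8 from 22966111 to 23059686, both on the plus strand. Promoter windows from RefSeq on GRCm38.p6, another build than that of the counts, matched 5 of the 7 genes, namely *Alpl*, *Phospho1*, *Enpp1*, *Sgms2* and *Slc20a1*. The 250 bases before the farthest upstream start are printed for the phosphatase genes and *Sgms2*, which were low together in P-Apex1KO callus, and for *Slc20a1*, which was higher there at 14-dpf. Capitals mark matches, on either strand, to 5 short motifs.
*Alpl*, chr4:137796385-137796634, minus strand: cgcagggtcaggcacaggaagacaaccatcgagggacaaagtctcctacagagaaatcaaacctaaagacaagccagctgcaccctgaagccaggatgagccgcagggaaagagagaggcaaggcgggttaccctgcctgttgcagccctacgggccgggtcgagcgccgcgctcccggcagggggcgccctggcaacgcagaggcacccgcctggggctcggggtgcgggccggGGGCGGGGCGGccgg
*Phospho1*, chr11:95824250-95824499, plus strand: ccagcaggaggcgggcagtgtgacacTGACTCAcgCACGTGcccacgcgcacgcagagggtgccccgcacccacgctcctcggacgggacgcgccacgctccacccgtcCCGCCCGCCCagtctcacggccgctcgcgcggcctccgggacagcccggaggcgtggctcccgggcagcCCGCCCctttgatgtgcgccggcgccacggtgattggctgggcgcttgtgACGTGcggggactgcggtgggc
*Sgms2*, chr3:131491444-131491693, minus strand: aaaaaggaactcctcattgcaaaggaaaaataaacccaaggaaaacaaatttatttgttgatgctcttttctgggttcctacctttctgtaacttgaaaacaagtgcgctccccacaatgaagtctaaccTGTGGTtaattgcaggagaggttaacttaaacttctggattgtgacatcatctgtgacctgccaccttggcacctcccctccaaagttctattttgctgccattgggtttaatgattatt
*Slc20a1*, chr2:129198523-129198772, plus strand: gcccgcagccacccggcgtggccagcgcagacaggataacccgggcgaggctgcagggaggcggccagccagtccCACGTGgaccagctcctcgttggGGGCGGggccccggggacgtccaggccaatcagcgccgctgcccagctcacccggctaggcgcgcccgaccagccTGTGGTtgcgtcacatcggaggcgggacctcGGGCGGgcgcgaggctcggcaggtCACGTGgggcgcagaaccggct

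The 4 windows do not share a common set of these motifs. The GC box (GGGCGG) was in 4 of the 5 genes' farthest upstream windows, in all but that of *Sgms2*, and in 32.7% of the 32851 windows compared. The RUNX core (TGTGGT), named for the osteoblast factor family, was in 3 of the 5, those of *Enpp1*, *Sgms2* and *Slc20a1*, and in 14% of all windows. The AP-1 site (TGANTCA) was in that of *Phospho1* among these 5 and in 6.75% of all windows, and the hypoxia response element core (ACGTG), which can overlap itself on the other strand, was in those of *Phospho1*, *Enpp1* and *Slc20a1* and in 16.6% of all. No TATA box (TATAAA) was in these 5 windows, and 12.4% of all windows held one. The shares cover every window compared, with those of 1 chromosome that holds no member left out, while 1 window a gene was counted here. *Sgms2* has 6 RefSeq starts and *Alpl* has 2, which the counts do not separate: windows 2 and 3 of *Sgms2* hold an AP-1 site, its windows 3 and 4 hold GC boxes, and window 2 of *Alpl* holds a TATA box.

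In WT callus at 6-dpf the genes fell into an abundant and a less abundant set, both in CPM and per kb of exon. Per kb of exon, *Smpd3* was 135 ± 22.8, *Sgms2* 124 ± 8.26 and *Alpl* 117 ± 15.4 CPM at 6-dpf (SD, n = 5), and *Enpp1*, the next, was 13.4 ± 3.17. *Slc20a1* (8.04 ± 0.979), *Phospho1* (6.14 ± 0.911) and *Slc20a2* (3.54 ± 0.422) followed on the same scale. At 3-dpf *Sgms2*, *Alpl* and *Slc20a1* were first in WT mice at 13.9 ± 1.21, 11.6 ± 1.79 and 10.3 ± 1.86 CPM per kb (SD, n = 4), and their ranges overlapped.

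At 3-dpf 0 of the 7 genes passed the test of genotype, where 0.0% of the 19866 genes tested did so with edgeR, 1216 had an unadjusted p under 0.05 and DESeq2 called 85. *Alpl* was 61.5, 69.7, 47.3 and 62.1 CPM in the WT mice and 10.1, 39.9, 81.9 and 79.2 CPM in the libraries labelled P-Apex1KO, in the order of their replicate numbers, a log2 fold change of -0.15 (SE 0.56, adjusted p = 0.98). *Smpd3* was 25.0, 32.1, 21.4 and 26.0 CPM in WT and 4.07, 12.7, 35.3 and 33.1 CPM in those libraries (-0.25, SE 0.58, adjusted p = 0.968). *Sgms2* was 87.7, 106, 103.97 and 106 CPM in WT and 43.7, 90.1, 131 and 146 CPM in them (0.08, SE 0.34, adjusted p = 0.981).

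For these 3 genes the libraries labelled P-Apex1KO lay on both sides of the WT mice, with replicate 1 lowest and replicates 3 and 4 highest. Replicate 1 also held the most RNA of skeletal muscle markers of this time point, a summed 8384 CPM of 5 markers against 2503 to 3678 CPM in WT mice, and replicates 2 and 3, at 5890.2 and 6142 CPM, were above every WT mouse as well. Replicate 1 held the least of 5 osteoblast markers, 9410.4 CPM against 14187.0 to 17157 CPM. Replicates 2 and 4, at 12438 and 14157 CPM, were below every WT mouse as well, and replicate 3, at 20527 CPM, was above every WT mouse. The part of this in the result was not tested. Without replicate 1, no member passed the test either, and the log2 fold changes of *Alpl* and *Smpd3* were 0.16 and 0.066.

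*Phospho1* at 3-dpf was 8.21, 9.05, 7.07 and 8.16 CPM in WT and 7.22, 12.1, 12.3 and 10.5 CPM in the libraries labelled P-Apex1KO, which lay above the WT mice in all but replicate 1 (log2 fold change 0.40, SE 0.18, adjusted p = 0.828). *Slc20a2* was 42.6, 39.7, 37.9 and 42.7 CPM in WT and 47.7, 54.5, 51.2 and 46.1 CPM in those libraries, each above every WT mouse, as for 1.97% of the genes tested. Its log2 fold change was 0.28 (SE 0.08) and did not pass adjustment (adjusted p = 0.768). *Enpp1*, from 63.3 to 84.4 CPM in WT and from 65.2 to 96.4 CPM in the libraries labelled P-Apex1KO, and *Slc20a1*, from 48.2 to 75.5 and from 57.5 to 78.8 CPM, had overlapping ranges.

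**Figure D1:**
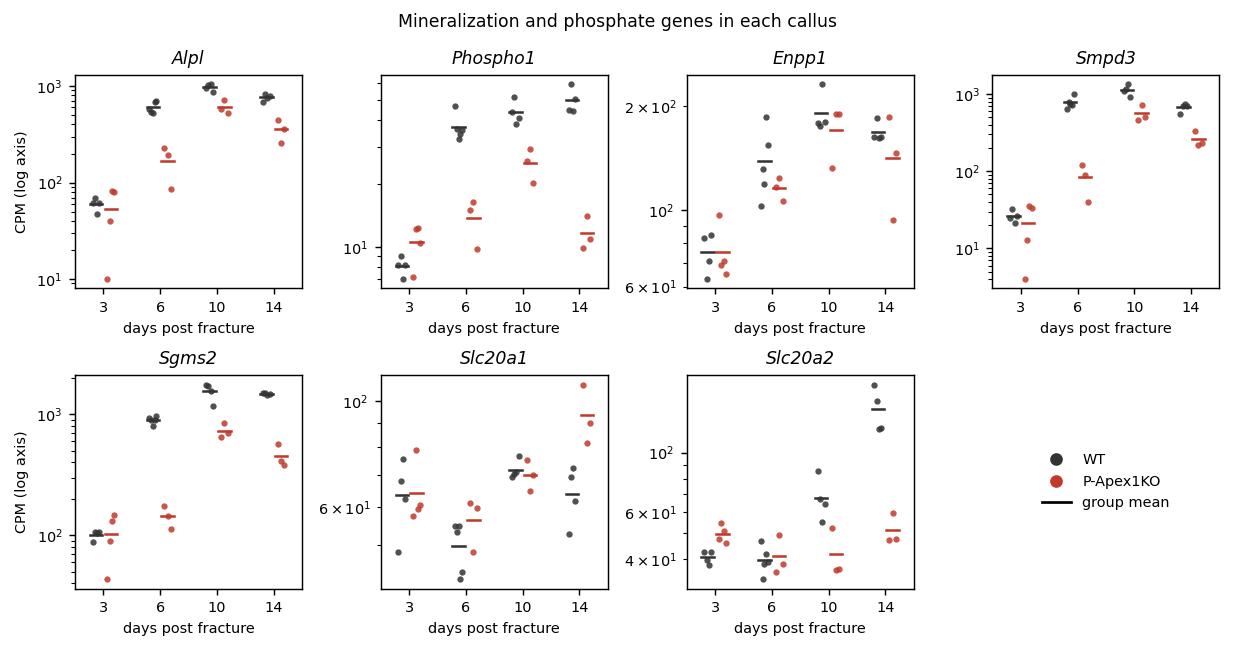
CPM of each gene (y axis, log scale) in each callus by days post fracture (x axis), with WT mice in dark grey, P-Apex1KO mice in red and a line at each group mean. Alpl, Smpd3, Sgms2 and Phospho1 separated at 6-dpf, while Slc20a2 was lower in all P-Apex1KO mice at 10- and 14-dpf, between 36.4 and 59.7 CPM, and higher in all libraries labelled P-Apex1KO at 3-dpf, between 46.1 and 54.5 CPM.

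At 6-dpf the phosphatases and the sphingomyelinase were lower in P-Apex1KO callus and the pyrophosphate and transport genes were not called. Of the 6 genes tested, 3 were lower, where 5.61% of all 20260 genes tested were lower, and *Alpl*, *Phospho1* and *Smpd3* each lay below every WT mouse in all P-Apex1KO mice, as 11.9% of all genes did. *Alpl* was 582, 540.2, 529.9, 684 and 699 CPM in WT mice and 228, 194 and 86.0 CPM in P-Apex1KO mice. Its log2 fold change was -1.78 (SE 0.28, adjusted p = 0.00578). *Phospho1* was 46.7, 36.4, 32.6, 34.2 and 36.0 CPM in WT and 14.9, 16.3 and 9.80 CPM in P-Apex1KO mice, of which replicate 3 was lowest, as it was for *Alpl*. The log2 fold change of *Phospho1* was -1.38 (SE 0.18, adjusted p = 0.00254).

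Of the genes of the phosphocholine supply, *Smpd3* was 644, 800.2, 736, 723 and 992 CPM in WT and 121, 88.1 and 39.9 CPM in P-Apex1KO mice, a log2 fold change of -3.15 (SE 0.32, adjusted p = 0.00106). *Sgms2*, whose fall here chose it, was 936, 904, 805, 901 and 964 CPM in WT and 176, 144 and 113 CPM in P-Apex1KO mice, a log2 fold change of -2.58 given as a description. In all 4 genes the highest P-Apex1KO mouse stayed far below the lowest WT mouse, and the P-Apex1KO mice themselves spread by over 1.5 times. Each of the 3 calls held in every fit that left out 1 mouse.

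*Enpp1* was 102, 132, 119, 186 and 155 CPM in WT and 116, 124 and 106 CPM in P-Apex1KO mice at 6-dpf, all 3 within the WT range (log2 fold change -0.28, SE 0.16, adjusted p = 0.309). *Slc20a1* was 54.6, 53.2, 54.6, 42.4 and 43.9 CPM in WT and 61.1, 48.3 and 59.7 CPM in P-Apex1KO mice (0.23, SE 0.12, adjusted p = 0.27). *Slc20a2* was 46.7, 33.8, 38.2, 41.7 and 38.98 CPM in WT and 35.8, 49.1 and 38.3 CPM in P-Apex1KO mice (0.06, SE 0.14, adjusted p = 0.831). The groups overlapped for all 3 genes.

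RNA of cell type markers differed between the same mice as well. The 5 chondrocyte markers *Col2a1*, *Acan*, *Sox9*, *Col9a1* and *Matn1* were all lower in P-Apex1KO mice, summing to 1564 to 2821 CPM against 23830.3 to 44384 CPM in WT, and so were 3 of 3 hypertrophic chondrocyte markers. Of 5 osteoblast markers 4 were lower, summing to 17274 to 26821 CPM against 35602 to 50630.0 CPM, and 5 of 5 skeletal muscle markers were higher, at 5127 to 11230.5 CPM against 2178 to 3868 CPM. No marker was at 0. The part of these shifts in the enzymes' difference was not tested.

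**Figure D2:**
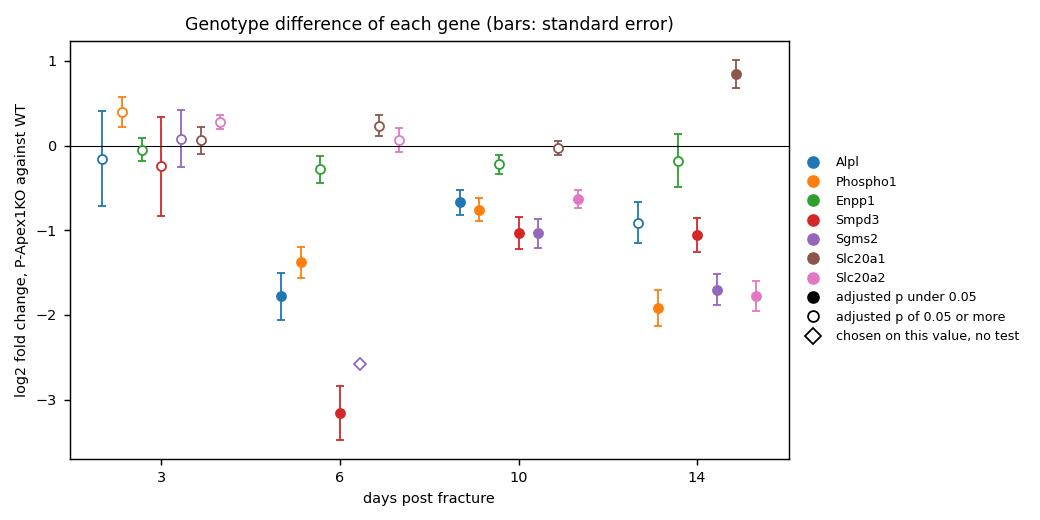
Log2 fold change of P-Apex1KO against WT (y axis) by days post fracture (x axis) for the 7 genes, offset for reading, with bars of 1 standard error. Filled points passed an adjusted p of 0.05 and the open diamond is Sgms2 at 6-dpf, without a test. Smpd3 was lowest at -3.15, and Slc20a1 was above 0 at 14-dpf with 0.85.

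At 10-dpf *Alpl*, *Phospho1*, *Smpd3*, *Sgms2* and *Slc20a2* were lower in P-Apex1KO callus. Of the 7 genes 5 were lower, against 3.44% of all 18910 genes tested, and the same 5 lay below every WT mouse in all P-Apex1KO mice, as 10.5% of all genes did. *Alpl* was 962, 1035, 1045 and 861 CPM in WT and 576, 725 and 527 CPM in P-Apex1KO mice, a log2 fold change of -0.67 (SE 0.15, adjusted p = 0.0355). *Phospho1* was 43.7, 51.6, 38.6 and 40.9 CPM in WT and 25.6, 29.1 and 20.2 CPM in P-Apex1KO mice (-0.76, SE 0.14, adjusted p = 0.0223). In both genes replicate 2 was the highest P-Apex1KO mouse.

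*Smpd3* at 10-dpf was 1105, 1172, 1340.4 and 910.4 CPM in WT and 462, 714 and 511 CPM in P-Apex1KO mice (log2 fold change -1.03, SE 0.19, adjusted p = 0.0227). *Sgms2*, tested here in mice that did not choose it, was 1763, 1712, 1563 and 1171 CPM in WT and 653, 848 and 704 CPM in P-Apex1KO mice (-1.04, SE 0.18, adjusted p = 0.0184). *Slc20a2* was 85.5, 66.9, 55.3 and 64.2 CPM in WT and 52.2, 36.4 and 36.8 CPM in P-Apex1KO mice (-0.63, SE 0.11, adjusted p = 0.0186). For *Slc20a2* the gap between the groups was narrow, between the WT mouse at 55.3 and the P-Apex1KO mouse at 52.2 CPM.

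The remaining pair overlapped at 10-dpf: *Enpp1* was 178, 175, 231 and 179 CPM in WT and 132, 189.8 and 190.0 CPM in P-Apex1KO mice (adjusted p = 0.26), and *Slc20a1* was 69.4, 70.3, 71.0 and 76.6 CPM in WT and 75.3, 64.8 and 69.8 CPM in P-Apex1KO mice (adjusted p = 0.892). The calls of this time point depended on single mice and on the model. With all 30 samples in one model the adjusted p was 0.352 for *Alpl* and 0.171 for *Smpd3*, and without the sex term it was 0.0643 for *Slc20a2*. Without replicate 1 of the P-Apex1KO mice or replicate 1 of the WT mice 0 of the 7 genes were called, and without replicate 2 of WT or replicate 3 of P-Apex1KO 1 gene was called, *Slc20a2* and *Phospho1* respectively. Without replicate 3 of WT *Alpl* was lost (adjusted p = 0.0648), and without replicate 4 of WT *Enpp1* was called as well (adjusted p = 0.0312). Without that P-Apex1KO replicate 1 the adjusted p was 0.0935 for *Slc20a2* and 0.199 for *Alpl*, and the log2 fold changes of the 5 genes stayed below 0 in every such fit. The 5 osteoblast markers summed to 14359 to 23429 CPM in P-Apex1KO mice against 36067 to 54228 CPM in WT, with 4 of 5 lower. The 3 hypertrophic chondrocyte markers summed to 6277 to 9766 against 10479 to 14104 CPM, with 1 of 3, *Pth1r*, lower. The 4 osteoclast markers *Acp5*, *Ctsk*, *Ocstamp* and *Calcr* summed to 778 to 1141 against 1691 to 4137 CPM, with 3 of 4 lower, and their part in the result was not tested.

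At 14-dpf *Phospho1*, *Smpd3*, *Sgms2* and *Slc20a2* were lower and *Slc20a1* was higher in P-Apex1KO callus. That made 4 of 7 genes lower and 1 higher, where 7.04% of all 20228 genes tested were lower and 4.28% higher. *Phospho1* was 44.6, 59.3, 44.4 and 50.5 CPM in WT and 9.86, 14.0 and 10.9 CPM in P-Apex1KO mice, a log2 fold change of -1.92 (SE 0.21, adjusted p = 0.00209). *Sgms2* was 1493, 1504, 1458 and 1473 CPM in WT and 566, 409 and 382 CPM in P-Apex1KO mice (-1.70, SE 0.19, adjusted p = 0.00209). The 4 WT mice agreed closely for *Sgms2*, 1482 ± 20.7 CPM (SD, n = 4), and the P-Apex1KO mice, 452 ± 99.1 CPM (SD, n = 3), spread more.

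*Smpd3* was 557, 705, 737 and 695 CPM in WT and 336, 219 and 234 CPM in P-Apex1KO mice at 14-dpf (log2 fold change -1.06, SE 0.20, adjusted p = 0.0157), and the lowest WT mouse was the female. *Alpl* was 679, 836, 744 and 795 CPM in WT and 447, 257 and 362 CPM in P-Apex1KO mice. Its groups did not overlap and its log2 fold change of -0.91 (SE 0.24) just missed the threshold, with an adjusted p of 0.0508. Without the sex term, which leaves sex mixed with genotype here, the adjusted p of *Alpl* was 0.00196. It was 0.0091 with DESeq2 and 0.013 without replicate 1 and 0.0058 without replicate 2 of the P-Apex1KO mice. Of 9 alternatives 4 called it, and the highest adjusted p among the 9 was 0.11. Of 6 fits without 1 mouse 2 called it. *Enpp1* was 163, 185, 162 and 163 CPM in WT and 186, 93.3 and 146 CPM in P-Apex1KO mice, which overlapped (-0.18, SE 0.31, adjusted p = 0.754).

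The phosphate transporters moved in opposite directions at 14-dpf. *Slc20a2* was 179.6, 156, 123 and 124 CPM in WT and 47.3, 59.7 and 47.7 CPM in P-Apex1KO mice, 3.42-fold lower (log2 fold change -1.77, SE 0.18, adjusted p = 0.0014). *Slc20a1* was 52.7, 69.3, 72.3 and 61.6 CPM in WT and 108, 81.7 and 89.7 CPM in P-Apex1KO mice, 1.80-fold higher (0.85, SE 0.17, adjusted p = 0.0181), and its adjusted p was 0.0513 without replicate 2 of WT and 0.0807 with the replicate number in place of sex. The WT female was the highest WT mouse for *Slc20a2* and the lowest for *Slc20a1*, and in the fit with sex both fold changes rest on that mouse. Group means were 146 CPM in WT and 51.6 CPM in P-Apex1KO mice for *Slc20a2*, and 64.0 and 93.2 CPM for *Slc20a1*. Against the 3 WT males alone the groups did not overlap either. Without overlap, 5 of the 7 genes were lower and 1 higher, as 23.4% and 18.5% of all genes were.

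Osteoblast and osteoclast markers were far lower in the same mice. The osteoblast markers summed to 15102 to 16294.0 CPM in P-Apex1KO mice against 65960.5 to 93534 CPM in WT, with 4 of 5 lower, and the osteoclast markers to 992 to 1794 against 7109 to 8141 CPM, with 4 of 4 lower. The chondrocyte markers, 5 of 5 higher in the model with sex, summed to 2883 to 3275 CPM in P-Apex1KO mice, within the WT range of 736 to 4568 CPM, of which the female was lowest. Of the 3 hypertrophic chondrocyte markers, *Col10a1* and *Ihh* were higher and *Pth1r* was lower in that model. They summed to 2268 to 5201 CPM in P-Apex1KO mice against 989 to 3839 CPM in WT. The 5 skeletal muscle markers summed to 1863 to 6974 against 785 to 2790 CPM, with 0 called. The part of these lists in the results was not tested.

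Over time, the mineralization enzymes were higher at 6- than at 3-dpf in WT mice. The paper describes the 3-dpf tissue as tibia dissected around the fracture site and the 6-dpf tissue as whole callus. The tissue taken may thus differ between these days in both genotypes, and its part in the changes was not tested. Of the 6 genes tested 4 rose and 1 fell, where 15.4% of all 20468 genes rose and 15.1% fell. The log2 changes were 4.82 for *Smpd3* (SE 0.53, adjusted p = 2.16e-05), 3.27 for *Alpl* (0.48, adjusted p = 0.000215), 2.14 for *Phospho1* (0.17, adjusted p = 4.36e-07) and 0.86 for *Enpp1* (0.14, adjusted p = 0.0003). *Sgms2* went from 101 ± 8.74 CPM (SD, n = 4) to 902 ± 59.9 CPM (SD, n = 5), as a description. *Slc20a1* fell by 0.39 on the log2 scale (SE 0.13, adjusted p = 0.0333), a call that was lost in 8 of the 16 fits without 1 mouse: without WT replicate 2, 3 or 4 of 3-dpf, WT replicate 1, 3, 4 or 5 of 6-dpf and P-Apex1KO replicate 2 of 6-dpf, with adjusted p from 0.0544 to 0.133.

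In P-Apex1KO mice 3 of 6 genes rose from 3- to 6-dpf, where 7.1% of all genes did. The log2 changes were 1.94 for *Smpd3* (SE 0.50, adjusted p = 0.0226), 1.67 for *Alpl* (0.49, adjusted p = 0.038) and 0.64 for *Enpp1* (0.16, adjusted p = 0.0142), and without replicate 1 or 2 of the 6-dpf P-Apex1KO mice 0 of the 3 calls held. The call of *Alpl* was also lost without replicate 2 of either 3-dpf group (adjusted p = 0.051 for WT and 0.0946 for the libraries labelled P-Apex1KO) and without replicate 1 of WT at 6-dpf (0.0522), and that of *Smpd3* without replicate 2 of those labelled libraries (0.0639). The means of *Phospho1*, which was not called, were 10.5 ± 2.36 CPM (SD, n = 4) at 3-dpf and 13.7 ± 3.41 CPM (SD, n = 3) at 6-dpf.

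The genotype difference itself changed from 3- to 6-dpf for *Phospho1*, by -1.77 on the log2 scale (SE 0.25, adjusted p = 0.00313), the single call among 6 genes, where 0.987% of all genes changed downwards. For *Smpd3* the change was -2.88 (SE 0.69, adjusted p = 0.0652), and for *Alpl* -1.60 (SE 0.66, adjusted p = 0.328). Both passed without replicate 1 of the 3-dpf libraries labelled P-Apex1KO, the library with the low values, at adjusted p of 0.0044 and 0.0247.

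From 10- to 14-dpf *Slc20a2* was the gene that rose in WT callus, by 1.19 on the log2 scale (SE 0.11, adjusted p = 0.000166), from 68.0 ± 12.7 to 146 ± 27.5 CPM (SD, n = 4 each), and *Smpd3* fell by 0.83 (SE 0.17, adjusted p = 0.00722). Among all 19705 genes 6.19% rose and 4.92% fell. In P-Apex1KO mice *Phospho1* fell by 1.16 (SE 0.19, adjusted p = 0.0366), where 0.228% of all genes fell, and *Slc20a2* was 41.8 ± 8.98 and 51.6 ± 7.02 CPM (SD, n = 3 each) with no call. The genotype difference changed over these days for *Phospho1*, by -1.35 (SE 0.26, adjusted p = 0.045), and for *Slc20a2*, by -1.15 (SE 0.18, adjusted p = 0.0299), against 0.396% of all genes with a lower difference. These 3 P-Apex1KO and interaction calls were near the threshold: 11 of 14 fits without 1 mouse lost the fall of *Phospho1*, with adjusted p up to 0.103 and all but those without WT replicate 1 or P-Apex1KO replicate 2 of 14-dpf or WT replicate 4 of 10-dpf. For the change of its genotype difference 12 fits lost the call, with adjusted p up to 0.164 and all but those without WT replicate 2 of 10-dpf or P-Apex1KO replicate 2 of 14-dpf. For *Slc20a2* 5 did so, without WT replicate 3 (0.112) or P-Apex1KO replicate 2 (0.0763) of 10-dpf, or WT replicate 1 (0.0881), WT replicate 4 (0.0615) or P-Apex1KO replicate 1 (0.0672) of 14-dpf.

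**Figure D3:**
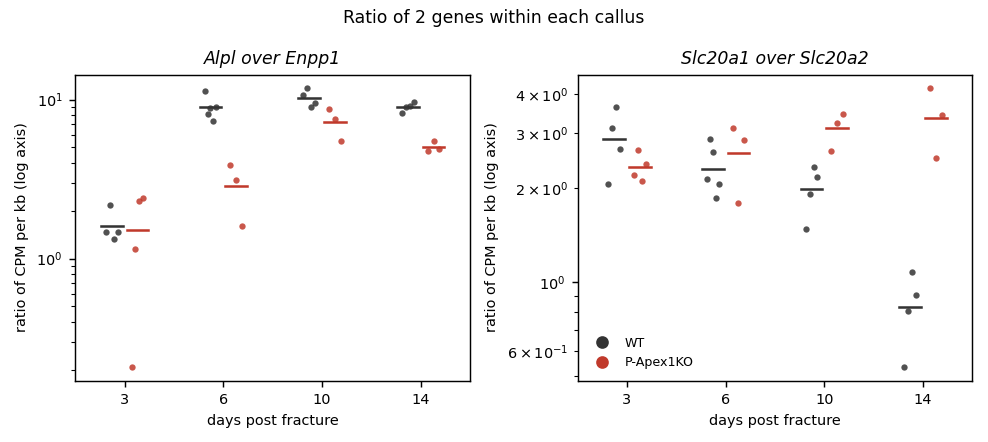
Ratio of the CPM per kb of exon (y axis, log scale) of Alpl to Enpp1 and of Slc20a1 to Slc20a2 within each callus, by days post fracture (x axis), with WT in dark grey, P-Apex1KO in red and lines at group means. The Alpl ratio of the P-Apex1KO mice lay below that of the WT mice from 6-dpf on, and the transporter ratio of P-Apex1KO mice lay above it at 10- and 14-dpf.

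Ratios within a callus do not depend on library scaling. That of *Alpl* to *Enpp1* sets RNA of the enzyme that breaks down pyrophosphate against RNA of the enzyme that makes it. It restates the values of the 2 genes above, and protein and activity were not measured here. Per kb of exon, *Alpl* was 7.31 to 11.3 times *Enpp1* in WT mice and 1.61 to 3.88 times in P-Apex1KO mice at 6-dpf. At 10-dpf the ratio was 8.98 to 11.8 in WT and 5.52 to 8.68 in P-Apex1KO mice, and at 14-dpf 8.29 to 9.70 and 4.78 to 5.47. The groups did not overlap at these 3 time points, and at 3-dpf they did, with 1.32 to 2.19 in WT and 0.209 to 2.42 in the libraries labelled P-Apex1KO. The ratio of *Slc20a1* to *Slc20a2* fell below 1 in 3 of the 4 WT mice at 14-dpf, at 0.534, 0.807 and 0.905, with the other at 1.07, and was 4.16, 2.49 and 3.42 in P-Apex1KO mice. At 10-dpf it was 1.48 to 2.34 in WT and 2.63 to 3.46 in P-Apex1KO mice, and at 3- and 6-dpf the groups overlapped.

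Across the 8 groups, the order of the levels differed between the genes. *Smpd3* was highest in WT at 10-dpf (1132 ± 178 CPM, SD, n = 4), followed by WT at 6- and 14-dpf and P-Apex1KO at 10-dpf, neighbours whose ranges overlapped, and then by P-Apex1KO at 14-dpf (263 ± 63.6 CPM, SD, n = 3) and 6-dpf (83.2 ± 41.0 CPM, SD, n = 3), each separate from the next. *Alpl* had WT at 10-dpf first, apart from the rest, and P-Apex1KO at 10-dpf (609 ± 103 CPM, SD, n = 3) level with WT at 6-dpf (607 ± 79.8 CPM, SD, n = 5). For *Sgms2* WT at 10- and 14-dpf overlapped at the top and P-Apex1KO at 6-dpf overlapped with the libraries labelled P-Apex1KO at 3-dpf but lay above WT at 3-dpf. *Phospho1* in P-Apex1KO mice at 14-dpf (11.6 ± 2.15 CPM, SD, n = 3) overlapped with the libraries labelled P-Apex1KO at 3-dpf (10.5 ± 2.36 CPM, SD, n = 4). *Enpp1* had no gap between neighbouring groups other than that between the 6-dpf and the 3-dpf groups, *Slc20a1* had 1 below P-Apex1KO at 14-dpf, and *Slc20a2* had 1 below WT at 14-dpf. Sample names change style between 6- and 10-dpf, so levels across that step are set side by side without a test.

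Beyond these 7 genes, a list of 37 genes of the same pathways was counted at each time point. At 6-dpf 10 of the 33 tested were lower and 2 higher, with a median log2 fold change of -0.05 against 0.01 for all genes. Of all genes tested 5.61% were lower and 5.31% higher, so the 2 higher genes are near the share over all genes. The phosphate-regulating and bone matrix genes made up most of them, with 6 of 8 lower: *Ibsp*, bone sialoprotein, had a log2 fold change of -1.48 (SE 0.35, adjusted p = 0.0276) and *Phex*, a membrane peptidase mutated in hypophosphatemic rickets, of -1.43 (0.22, adjusted p = 0.00613). Among 8 genes of pyrophosphate and ATP handling 2 were lower, *Nt5e*, which makes adenosine from AMP, at -1.06 (0.15, adjusted p = 0.00314) and *Ppa1*, a cytosolic pyrophosphatase, at -0.96 (0.18, adjusted p = 0.0109). *Mepe*, a matrix phosphoglycoprotein of osteocytes, was higher at 43.8 ± 14.9 CPM (SD, n = 3) against 10.3 ± 3.20 CPM (SD, n = 5) in WT, and so was *Sost*, the osteocyte WNT inhibitor, at 41.8 ± 5.55 against 18.6 ± 6.50 CPM (SD, same n), with log2 fold changes of 2.04 and 1.36 (adjusted p = 0.00592 and 0.0111). Of the 10 other genes of sphingomyelin and phosphocholine metabolism, among them *Sgms1* and *Smpd1*, 0 were called at 6-dpf.

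At 10-dpf 6 of 30 list genes were lower and 0 higher, where 3.44% and 3.01% of all genes were (median log2 fold change -0.31 against -0.0031 for all genes). *Dmp1*, a matrix protein of osteocytes, had -1.72 (SE 0.33, adjusted p = 0.0364), *Fam20c*, the kinase that phosphorylates such matrix proteins, -1.32 (0.16, adjusted p = 0.00986), *Phex* -1.14 (0.24, adjusted p = 0.04) and *Enpp6*, a choline phosphodiesterase, -1.08 (0.23, adjusted p = 0.0435). At 14-dpf 9 of 30 were lower and 2 higher, where 7.04% and 4.28% of all genes were (median -0.22 against 0.04). Largest among the lower genes were *Dmp1* at -2.38 (0.33, adjusted p = 0.00711), *Phex* at -1.87 (0.31, adjusted p = 0.0112), *Enpp3*, a nucleotide pyrophosphatase, at -1.66 (0.20, adjusted p = 0.00254) and *Enpp6* at -1.48 (0.16, adjusted p = 0.00172). *Mepe* and *Sost*, which were higher at 6-dpf, were both called lower at 14-dpf. *Mepe* was 29.3 ± 3.07 CPM in P-Apex1KO mice (SD, n = 3) against 64.4 ± 8.29 CPM in WT (SD, n = 4). *Sost* was 22.0 ± 3.16 against 41.0 ± 14.0 CPM (SD, same n). *Xpr1*, the phosphate exporter, named after its values were seen, averaged 520.1 ± 28.2 CPM in the 4 WT mice against 232 ± 42.1 CPM (SD) in the 3 P-Apex1KO mice (-1.23, SE 0.16, adjusted p = 0.00397). *Enpp2*, the enzyme autotaxin, and *Mgp*, matrix Gla protein and an inhibitor of calcification, were higher in the fit with sex, at 1.52 (adjusted p = 0.0467) and 1.04 (adjusted p = 0.0155). Their ranges overlapped: *Enpp2* was 51.4 to 102 CPM in P-Apex1KO mice and 29.5 to 52.6 CPM in WT, and *Mgp* was 179 to 258 and 106 to 217 CPM. At 3-dpf 0 of 31 were called.

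**Figure D4:**
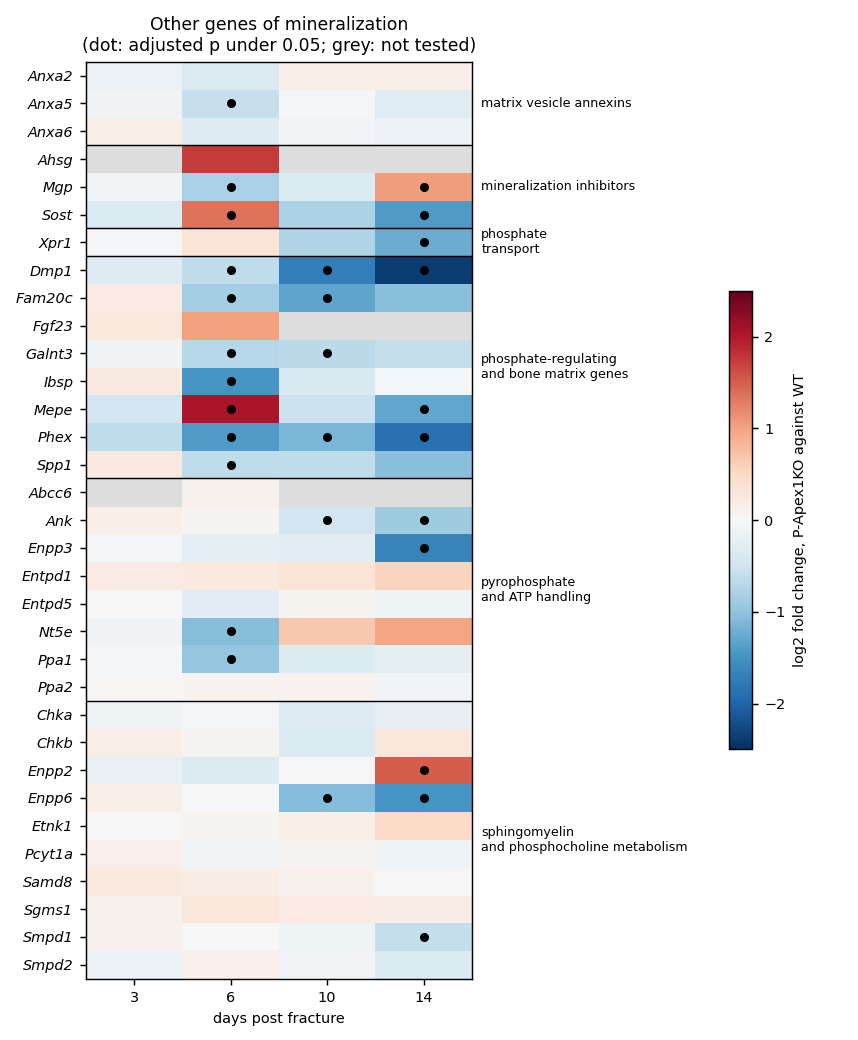
Log2 fold change of P-Apex1KO against WT (colour, blue lower and red higher) of the other mineralization genes (rows, grouped by function) by days post fracture (columns), with a dot where the adjusted p was under 0.05 and grey where a gene was not tested. Dmp1 and Phex carry dots at 6-, 10- and 14-dpf, and the 3-dpf column carries none.

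The genes differed in how closely they followed each other from callus to callus. Over the 30 mice, log2 CPM of *Alpl* and *Smpd3* had a Pearson r of 0.991, the highest of *Alpl* with any of 13793 protein-coding genes of at least 1 CPM, and the reverse held too. The points share libraries and the time course, and after subtraction of the 8 group means r was 0.966. *Sgms2* followed *Alpl* and *Smpd3* at 0.965 and 0.972, and at 0.906 and 0.917 after subtraction. Relative to their level, the libraries labelled P-Apex1KO at 3-dpf spread more for these 3 genes than any other group. They spanned 10.1 to 81.9 CPM for *Alpl*, 4.07 to 35.3 CPM for *Smpd3* and 43.7 to 146 CPM for *Sgms2*. This spread enters the r after subtraction, and its part in them was not tested. *Phospho1* was at 0.872 with *Alpl*, and at 0.581 after subtraction, and *Enpp1* was at 0.837, and at -0.05 after subtraction. *Slc20a1* was at 0.05 with *Alpl* over the 30 mice, but at -0.61 within the 16 mice of 3- and 6-dpf and at -0.53 within the 14 of 10- and 14-dpf. *Slc20a2* was at 0.37 over all, and at -0.42 and 0.35 within these sets.

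**Figure D5:**
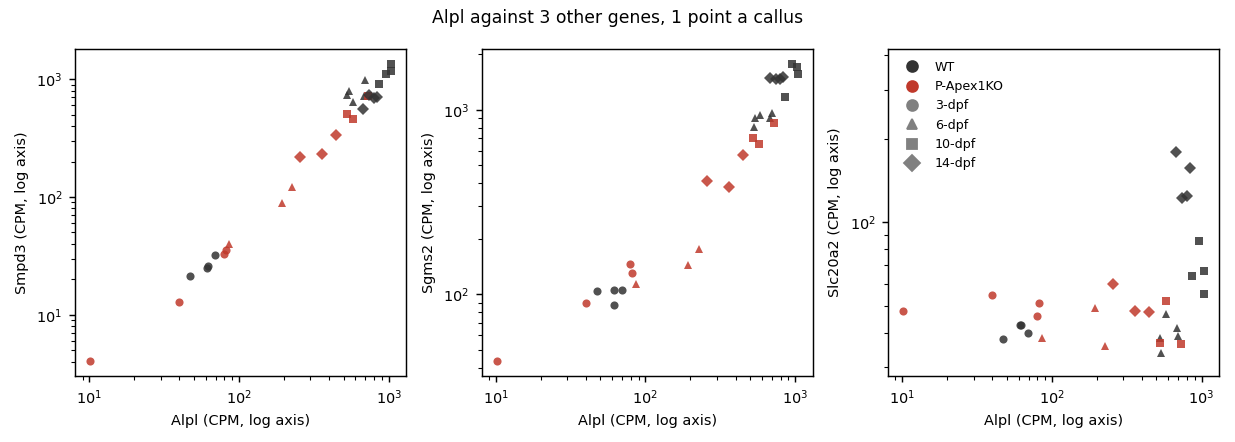
Alpl (x axis, CPM, log scale) against Smpd3, Sgms2 and Slc20a2 (y axes, CPM, log scale), 1 point a callus, with WT in dark grey, P-Apex1KO in red and the marker shape giving the days post fracture. Smpd3 and Sgms2 lie along 1 band with r of 0.991 and 0.965, whereas Slc20a2 does not, with r of 0.37.

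By r over the 30 mice, the genes most like a member were *Smpd3*, *Itga10* and *Sdk2* for *Alpl* (0.991 to 0.983) and *Alpl*, *Pth1r* and *Itga10* for *Smpd3* (0.991 to 0.986). For *Sgms2* they were *Ptgis*, *Cgref1* and *Lbh* (0.984 to 0.982), and for *Phospho1* *Sdc3*, *Rcor2* and *Ormdl3* (0.947 to 0.945). *Enpp1* was closest to *Ehbp1*, *Nrep* and *Cdc42bpa* (0.943 to 0.934) and *Slc20a1* to *Dennd4a*, *Gapvd1* and *Tut7* (0.894 to 0.854). Among the genes most like *Slc20a2* were *Atp6ap1*, a proton pump accessory subunit (0.945), and *Clcn7*, a lysosomal chloride transporter (0.942), and after subtraction of the group means these were at 0.434 and 0.464.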

How the data were processed

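The authors extracted total RNA from ground callus, made stranded libraries depleted of rRNA and globin RNA, aligned reads to mm39 with STAR 2.7.0d and assigned reads with 1 mapping position to Ensembl genes by reverse strand in featureCounts, and the deposited values are these raw counts. Groups, sex and replicate numbers came from the labels. Positions and exon lengths came from GENCODE M39 on GRCm39, which holds 54749 of the 55416 IDs. The 7 genes, the pathway and marker lists and the motifs were chosen with earlier results of these data known.

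Each time point was fitted with edgeR 4.0.16 in R 4.3.3 (filterByExpr, TMM, genotype and sex, robust quasi-likelihood F tests, Benjamini-Hochberg adjustment over all genes tested, threshold 0.05), and pairs of time points with 4 groups and sex. The standard error is the log2 fold change over the square root of F. CPM uses TMM over all 30 libraries. Named genes were the 7, at most 4 pathway genes per time point and direction by size among those called, and the 3 protein-coding genes of highest r (log2 CPM, prior count 2), of which 1 is not reported here. Alternatives were DESeq2 1.42.0, no sex term, other scalings and filters, 1 model over all samples, a replicate block instead of sex, and each mouse left out. The scripts were tested on simulated counts. Each sample is labelled as a mouse callus, and where nothing says that libraries were made separately p-values measure the spread between these samples. Deviations from the group means of same-numbered mice correlated at 0.126 to 0.5 in the 4 pairs of 3-dpf, over 0.1 in each. In the 9 pairs of the other time points they correlated at -0.373 to 0.275, over 0.1 in 1 pair of 6-dpf and 2 pairs of 10-dpf. The labels state no pairing, so whether same-numbered mice were paired is not known, and the test of genotype used none. With 3 to 5 mice a group the number of mice limits the precision, and the reads were not analysed here.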

Additional observations from a re-analysis of the deposited data

Results flagged for a closer look

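In 5 of the 35 groups of 4 or 5 mice examined, 1 mouse stood apart from the rest by Dixon's test at 95%, which chance does in about 1 of 20 groups. These were *Phospho1* in replicate 1 of WT at 6-dpf (46.7 CPM), *Enpp1* in replicate 3 of WT at 10-dpf (231 CPM) and in replicate 2 of WT at 14-dpf (185 CPM), *Sgms2* in replicate 1 of WT at 3-dpf (87.7 CPM, the lowest of its group) and *Slc20a1* in replicate 2 of the libraries labelled P-Apex1KO at 3-dpf (78.8 CPM). The genotype difference differed between time points, by the test of the interaction, for *Phospho1* from 3- to 6-dpf (-1.77 on the log2 scale) and from 10- to 14-dpf (-1.35), and for *Slc20a2* from 10- to 14-dpf (-1.15).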

How the results depend on the processing

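The calls of *Alpl*, *Phospho1* and *Smpd3* at 6-dpf were kept under each alternative run. With the replicate number as a block in place of sex, 1 gene was called at 3-dpf, and *Sgms2* had a log2 fold change of -0.11 there. At the other time points the block gave 677 genes at 6-dpf and a log2 fold change of 0.0020 for *Slc20a1* at 10-dpf, which was not called. Over all time points, 4 of 13 P-Apex1KO mice correlated best with the WT mouse of their own number, 3 of them at 3-dpf. DESeq2 called 85 genes at 3-dpf, 2187 at 10-dpf, 718 for the change of the genotype difference from 3- to 6-dpf (2 of the 6 members tested), 550 for P-Apex1KO from 10- to 14-dpf (5 members) and 465 for the change of the difference over those days. Without the sex term 750 genes were called at 10-dpf and 6849 at 14-dpf, 672 for P-Apex1KO from 10- to 14-dpf (4 members), and 1 member for the change of the difference.

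Library size alone moved the median of all genes by 0.20 at 6-dpf and 0.31 at 14-dpf on the log2 scale. It called 3594 genes at 6-dpf, 814 lower and 2780 higher against 1137 and 1075 with TMM, and 766 lower and 1878 higher at 14-dpf against 1424 and 865. At 10-dpf it called 464 lower and 849 higher against 651 and 570. It called 433 genes for the change of the difference from 3- to 6-dpf, and 8 genes with 0 members from 10- to 14-dpf. It gave log2 fold changes of 0.053 for *Slc20a1* at 10-dpf and 0.092 for *Enpp1* at 14-dpf, neither of them called. *Smpd3* at 14-dpf had an adjusted p of 0.0503 with it. For the change of the difference from 10- to 14-dpf, DESeq2 size factors left 1 member, and leaving out the 20 most abundant genes 55 genes and 1 member. Without the filter on low counts 4 genes were called at 3-dpf, 1 member for P-Apex1KO from 3- to 6-dpf, 217 genes for P-Apex1KO from 10- to 14-dpf and 207 for the change of the difference. With at least 10 counts in every sample 2 members were called for the change from 3- to 6-dpf. All 30 samples in one model gave 38 genes at 3-dpf, 6188 at 14-dpf, 3 members at 10-dpf, 410 genes and 2 members for the change from 3- to 6-dpf, 1 member for WT and 507 genes for P-Apex1KO from 10- to 14-dpf. The cause of these shifts was not tested.

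With each mouse left out, the genes called ranged from 0 to 10 at 3-dpf, from 890.0 to 2359 at 6-dpf, from 42 to 1827 at 10-dpf (0 to 6 members) and from 1206 to 3773 at 14-dpf. Over time they ranged from 1223 to 3258 (0 to 3 members) for P-Apex1KO from 3- to 6-dpf, from 104 to 450.0 (1 to 3 members) for the change of the difference, from 1162 to 2760.0 for WT from 10- to 14-dpf, from 0 to 252 (0 to 1 member) for P-Apex1KO and from 2 to 206 (0 to 3 members) for the change of the difference. At 3-dpf the log2 fold change ranged from -0.54 to 0.16 for *Alpl*, from -0.16 to 0.022 for *Enpp1*, from -0.74 to 0.066 for *Smpd3*, from -0.18 to 0.30 for *Sgms2* and from -0.10 to 0.25 for *Slc20a1*. It ranged from -0.074 to 0.24 for *Slc20a2* at 6-dpf, from -0.14 to 0.028 for *Slc20a1* at 10-dpf and from -0.40 to 0.047 for *Enpp1* at 14-dpf. Leaving out replicate 1 of WT at 14-dpf, the WT female, could not be fitted with sex in the model.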
